A study of Mus musculus with 40 samples.

Results

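The NRF2 antioxidant response was followed through 10 genes chosen by name out of the 22844 genes in the deposited tables: the transcription factor Nfe2l2 (NRF2), its inhibitor Keap1, and the target enzymes Nqo1, Hmox1, Gclc, Gclm, Gsr, Txnrd1, Srxn1 and G6pdx. All 10 were among the 13543 genes tested, those with a CPM (counts scaled to a library's total) of at least 1 in at least 5 libraries. In 9-month-old muscle without Tsc1, 8 of the 10 were higher than in control muscle, led by Srxn1 (3.85-fold), Nqo1 (3.05-fold) and Hmox1 (2.6-fold), while Keap1 and G6pdx did not pass the test. Of all genes tested, 37.9% passed in that comparison and 19.1% were higher. After 3 days of rapamycin, 6 of these 8 were lower in the same mutant at that age, and Keap1 was higher, where 32.6% of all genes passed and 16.8% were lower.

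NRF2 is a leucine zipper transcription factor that works mainly through protein stability. KEAP1 binds it in the cytoplasm and passes it to a ubiquitin ligase for destruction, and oxidants and electrophiles that modify KEAP1 let NRF2 escape to the nucleus. There it pairs with small Maf proteins at antioxidant response elements and raises genes for glutathione synthesis, thioredoxin reduction, heme breakdown, quinone reduction and NADPH supply. In skeletal muscle, contraction and mitochondria produce the peroxides that these enzymes remove.

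The tissue was whole extensor digitorum longus (EDL), a mouse muscle built of fast fibers, sequenced in 8 groups of 5 libraries. TSCmKO mice carried floxed Tsc1 alleles (strain label Tsc1tm1Djk/J) and Cre recombinase, which removed Tsc1, an inhibitor of the growth kinase complex mTORC1, in muscle fibers. The promoter driving Cre is not given in the sources used here. Control mice (CON) were littermates with the same floxed alleles and no Cre. Both genotypes were taken at 3 and 9 months (3m, 9m), after 3 days of intraperitoneal injections of vehicle or of rapamycin (RM), which blocks mTORC1. The dose is uncertain, since the labels name 4 mg per kg and the study names a larger one. The labels do not state that replicates are separate animals, but the study text describes 1 mouse per sample.

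Total counts ran from 8883870 to 35224669 per library. Tsc1 itself was at most 35.8 CPM in every TSCmKO library and at least 51.3 CPM in every CON library, in whole muscle that also holds cells outside the deletion. CPM here follow trimmed-mean (TMM) scaling of library sizes, and group values are means ± SD (n = 5). The 8 listed muscle fiber markers summed to 128200 to 184700 TPM (a share of transcripts, scaled by length) in all 40 libraries. Every library thus held muscle, but no other muscle was compared, so the EDL label itself was not tested. At 9 months this sum was lower in TSCmKO than in CON (128200 to 141500 against 166600 to 184700). The library 9mTSCmKO replicate 1 stood furthest from its own group (median r of log2 CPM 0.937, highest of all libraries 0.989), and values without it are given for Gsr. Leaving it out also lost the Keap1 call between ages in TSCmKO and gained Srxn1 for rapamycin by genotype at 9 months (log2 -1.05, edgeR adjusted p = 0.0434). Without it the other 7 genotype calls at 9 months and all 7 rapamycin calls in 9-month TSCmKO were still made.

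The promoters are shown first because the target genes are defined by the element that NRF2 and small Maf proteins read. RefSeq windows of 300 bases (250 before the transcription start and 50 after, build GRCm38.p6) existed for 7 of the 10 genes and not for Hmox1, Gclc and Gsr. They were searched on both strands for TGACNNNGC, the core of the antioxidant response element, and for its relative TGAGNNNGC. The first was found in 5 of the 9 windows of these 7 genes and in 12.4% of all 32851 windows. The second was found in 1 of the 9 and in 17.6% of all windows. Stretches with a match upstream of the start, except that of G6pdx, are printed below on the strand of the gene, with the matching letters in capitals.
Nfe2l2: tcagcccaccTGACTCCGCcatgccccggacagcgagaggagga
Gclm: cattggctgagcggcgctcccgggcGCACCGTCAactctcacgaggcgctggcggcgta
Txnrd1: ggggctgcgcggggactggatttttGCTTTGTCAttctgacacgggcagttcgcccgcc
Srxn1, near match: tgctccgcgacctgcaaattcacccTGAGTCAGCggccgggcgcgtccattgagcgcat
Srxn1, far match: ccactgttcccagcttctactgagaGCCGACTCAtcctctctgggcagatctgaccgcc
The capitals of Nfe2l2 read TGACNNNGC forward, from 240 to 232 bases before the start (chr2:75704870-75704913, minus strand), in an exon of the noncoding gene E030042O20Rik on the other strand. Those of Gclm (chr3:122245398-122245456) and Txnrd1 (chr10:82859089-82859147) read it in reverse, and the Txnrd1 stretch lies in an intron of longer Txnrd1 transcripts, before the second of 3 listed starts. The near Srxn1 match (chr2:152105454-152105512) reads TGAGNNNGC forward and holds TGAGTCA, letters that AP-1 factors also read. The far Srxn1 match (chr2:152105341-152105399) reads TGAGNNNGC in reverse. G6pdx had a reverse TGACNNNGC 57 to 49 bases before its start, inside a transcribed leader of a longer form, and Srxn1 another 29 to 37 bases after its start. The windows of Nqo1 and Keap1 held neither set of letters, and sequence outside the 300 bases was not searched. A match is a description of letters, and binding was not measured.

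Per length, the 10 genes spanned a wide range of expression. Mean levels over the 40 libraries were highest for Keap1 (65.5 TPM) and Txnrd1 (62.2 TPM), followed by Nfe2l2 (43.2 TPM) and Srxn1 (33.3 TPM). Gclm, Gsr and Nqo1 lay close together at 21.1, 19.8 and 19.2 TPM. Gclc (13.1 TPM) and Hmox1 (9.2 TPM) were lower, and G6pdx was lowest at 3.41 TPM, with 27 to 195 counts per library. The largest ratios of the highest to the lowest library were those of Srxn1 (10.8 to 100.4 TPM), Hmox1 (4.43 to 30.6 TPM) and Nqo1 (9.9 to 54.4 TPM).

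**Figure D1:**
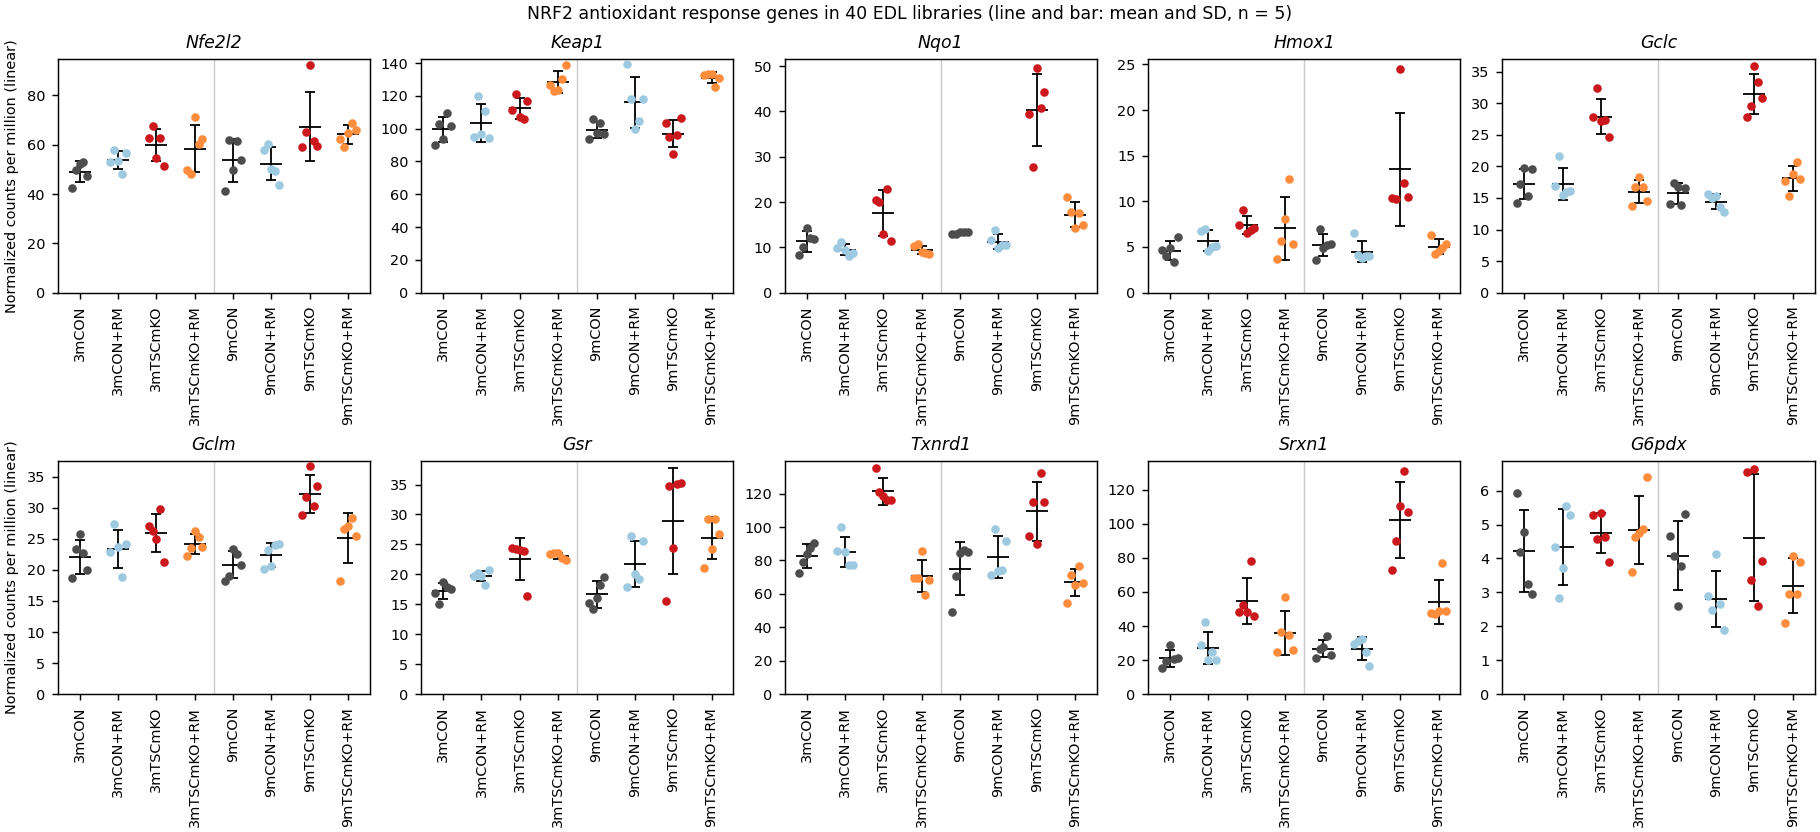
TMM-scaled CPM (linear axis from 0) of the 10 genes in each of 40 EDL libraries, 1 point per library, with the mean and SD of each group of 5 as black line and bar. Nqo1, Srxn1, Gclc and Hmox1 reach their highest group means in 9mTSCmKO, and Keap1 has its highest in 9mTSCmKO+RM.

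Nfe2l2 (ENSMUSG00000015839, chr2:75675513-75704641, minus strand, GRCm38), the transcription factor gene, showed small differences. It was 41 to 61.7 CPM in 9mCON (53.7 ± 8.68) and 59.1, 65.1, 92.2, 61.4 and 59.3 CPM in 9mTSCmKO (67.4 ± 14.1), so that the groups overlapped. The difference passed the test at 9 months (log2 fold change 0.33 ± 0.12 SE, edgeR quasi-likelihood adjusted p = 0.0293). Replicate 3 stood far above the other 4 libraries, and without it the difference was 0.20 (edgeR adjusted p = 0.183). The call was also lost without 9mCON replicate 1 (0.25) or replicate 3 (0.30), over a range of adjusted p from 0.0654 to 0.183. At 3 months the level was 49 ± 4.31 CPM in CON and 59.9 ± 6.63 CPM in TSCmKO (log2 0.29 ± 0.12, edgeR adjusted p = 0.0923). With rapamycin Nfe2l2 differed by -0.07 in 9-month and -0.04 in 3-month TSCmKO muscle (95% intervals -0.32 to 0.18 and -0.28 to 0.21), and neither passed the test. Without 9mTSCmKO replicate 3 the 9-month value was 0.065 (edgeR adjusted p = 0.706), with the opposite sign.

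Keap1 (ENSMUSG00000003308, chr9:21229730-21239361, minus strand), which encodes the inhibitor, was higher with rapamycin in 9-month TSCmKO muscle. It was 93.6, 105.6, 97.5, 103.3 and 96.7 CPM in 9mCON and 103.3, 94.7, 84.7, 96 and 106.5 CPM in 9mTSCmKO. The genotype difference at 9 months was -0.03 (95% interval -0.21 to 0.14), and at 3 months it was 0.18 (95% interval 0.0019 to 0.35, edgeR adjusted p = 0.151). With rapamycin the 9-month TSCmKO libraries were at 132.7, 133.6, 133.5, 125.2 and 131 CPM, all above every untreated library of that genotype and age (log2 0.44 ± 0.09, edgeR adjusted p = 0.000156). At 3 months the treated TSCmKO libraries also lay above all untreated ones (128.6 ± 6.55 against 112.5 ± 6.41 CPM), but the difference of 0.19 ± 0.09 missed the threshold (edgeR adjusted p = 0.104). In 9-month CON muscle the change was 0.23 ± 0.09 (edgeR adjusted p = 0.0842), and the test of whether the change differed between genotypes did not pass (0.21 ± 0.12, edgeR adjusted p = 0.334). The Keap1 call in CON passed without 9mCON+RM replicate 3 (0.27).

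Nqo1 (ENSMUSG00000003849, chr8:107388225-107403206, minus strand), a quinone reductase and a standard readout of NRF2 activity, had a larger genotype difference at 9 than at 3 months. In 9mCON the 5 libraries were at 13, 12.9, 13.5, 13.3 and 13.4 CPM. In 9mTSCmKO they were at 39.4, 27.8, 49.5, 40.8 and 44.3 CPM, each above 2 times any control value. This was a log2 difference of 1.61 ± 0.16 (edgeR adjusted p = 1.85e-10). At 3 months CON was at 8.29, 10, 14.3, 12.1 and 11.8 CPM, and TSCmKO was at 20.4, 20, 12.8, 23 and 11.3 CPM, with 2 of 5 mutant libraries inside the control range. The 3-month difference was 0.62 ± 0.16 (edgeR adjusted p = 0.00388), and the difference at 9 months exceeded it by 0.99 ± 0.22 (interaction, edgeR adjusted p = 0.00619). With rapamycin Nqo1 was 21.2, 17.8, 14.2, 17.5 and 15 CPM in 9mTSCmKO+RM, below every untreated mutant library (-1.24 ± 0.16, edgeR adjusted p = 1.26e-07). In 3mTSCmKO+RM it was 10.2, 10.6, 8.9, 8.79 and 8.6 CPM, again below every untreated mutant library (-0.89 ± 0.16, edgeR adjusted p = 5.35e-05).

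Hmox1 (ENSMUSG00000005413, chr8:75093621-75100589, plus strand), the inducible heme oxygenase that opens heme and releases iron, was 3.6, 6.94, 4.87, 5.24 and 5.37 CPM in 9mCON. In 9mTSCmKO it was 10.4, 10.2, 24.5, 12 and 10.5 CPM, above all controls in each of 5 libraries (log2 1.38 ± 0.24, edgeR adjusted p = 2e-05). Replicate 3 was more than 2 times as high as the next library, and without it the difference was 1.06 (edgeR adjusted p = 0.000288). With rapamycin the 9-month mutants were at 6.26, 4.21, 4.57, 4.89 and 5.3 CPM, all inside the control range (-1.42 ± 0.24, edgeR adjusted p = 2.04e-05, and -1.10 without replicate 3). At 3 months Hmox1 was higher in TSCmKO than in CON (7.4 ± 0.98 against 4.59 ± 1.02 CPM, log2 0.70 ± 0.25, edgeR adjusted p = 0.0385). That call was lost in 8 of 10 fits that left out 1 library, at 0.59 to 0.73, and kept only without 3mCON replicate 5 or 3mTSCmKO replicate 3. Treated 3-month mutants were at 3.71, 5.63, 8.04, 12.5 and 5.34 CPM, a spread that enclosed all 5 untreated ones (-0.06 ± 0.24, 95% interval -0.55 to 0.42). The rapamycin response of Hmox1 in TSCmKO differed between ages by -1.36 ± 0.34 (edgeR adjusted p = 0.0271), a comparison added after the data were seen. It missed the threshold without 3mTSCmKO+RM replicate 4, 9mTSCmKO replicate 3 or 9mTSCmKO+RM replicate 2 or 3 (-1.33 to -1.04).

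Macrophages express Hmox1 strongly, so their markers were set beside it. In bulk muscle, fewer cells of a type and less RNA per cell cannot be told apart. The summed TPM of 9 macrophage markers was 68.7 to 123.4 in 9mTSCmKO and 63.5 to 192.4 in 9mCON. Of the 9 markers, 1 was higher (Cd68, mean 12.9 against 3.35 TPM) and 1 lower in that comparison, where 37.9% of all genes were called. The median log2 difference of the 9 was -0.35, opposite in sign to that of Cd68. None of the 9 was at 0 in any library. In 9mTSCmKO+RM the sum was 44.1 to 71.05, with 2 of 9 markers lower than in untreated mutants. In 9-month control muscle rapamycin lowered 8 of 9 macrophage markers (sum 15.5 to 53.8) and all 5 fibroblast markers, while Hmox1 differed there by -0.21 ± 0.25 (edgeR adjusted p = 0.665). At 3 months treated mutants had 115.4 to 217.5 against 71.4 to 143.3 in untreated ones, with 2 of 9 markers higher. Of all genes tested, 32.6% and 23.6% were called with rapamycin in TSCmKO at 9 and 3 months, and 11.8% in 9-month CON. The part of macrophages in the Hmox1 values was not tested.

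**Figure D2:**
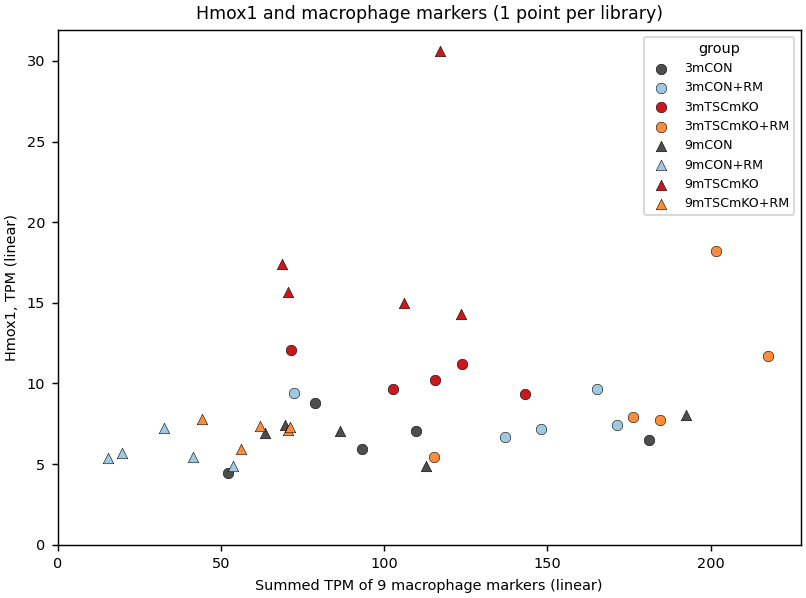
Hmox1 (TPM, linear) against the summed TPM of 9 macrophage markers (linear) in each of 40 libraries, with circles for 3 months, triangles for 9 months and colors for genotype and treatment. The 5 untreated 9-month TSCmKO libraries lie at 14.3 to 30.6 TPM of Hmox1 and at marker sums of 68.7 to 123.4, a range that control libraries with less Hmox1 also cover.

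Gclc (ENSMUSG00000032350, chr9:77754535-77794485, plus strand) and Gclm (ENSMUSG00000028124, chr3:122245557-122270732, plus strand) encode the catalytic and modifier subunits of glutamate-cysteine ligase, the first and rate-limiting step of glutathione synthesis. Gclc was 14.1, 17.4, 16.8, 13.9 and 16.6 CPM in 9mCON and 27.8, 29.5, 35.9, 33.4 and 30.9 CPM in 9mTSCmKO. It was 2-fold higher there without overlap (log2 1.002 ± 0.11, edgeR adjusted p = 2.52e-09). At 3 months Gclc was 14.3 to 19.7 CPM in CON and 24.7 to 32.5 CPM in TSCmKO (0.70 ± 0.11, edgeR adjusted p = 7.59e-06). Rapamycin brought it to 17.8, 15.3, 18.8, 20.7 and 18.1 CPM at 9 months and 13.8, 16.8, 18.3, 16.7 and 14.5 CPM at 3 months, below every untreated mutant library at each age. Both changes were -0.80 ± 0.11 (edgeR adjusted p = 5.86e-07 and 6.53e-07). Gclm, which raises the efficiency of the enzyme, moved less, from 20.8 ± 2.18 to 32.2 ± 3.01 CPM at 9 months without overlap (0.63 ± 0.11, edgeR adjusted p = 2.16e-05). At 3 months its difference was 0.23 ± 0.11 (edgeR adjusted p = 0.157). Rapamycin lowered Gclm to 25.1 ± 4 CPM at 9 months (-0.35 ± 0.11, edgeR adjusted p = 0.0127), a call that was lost without 9mTSCmKO+RM replicate 1 (-0.26, edgeR adjusted p = 0.0575). Gclm shares exon positions with Gm6061 on its own strand, so that some of its reads may be counted to either.

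Gsr (ENSMUSG00000031584, chr8:33652523-33698163, plus strand), glutathione reductase, which returns oxidized glutathione to its reduced form with NADPH, rose in the mutant at 9 months and did not pass the test with rapamycin. It was 15.2, 14.3, 16, 18.3 and 19.6 CPM in 9mCON and 15.5, 34.8, 24.4, 35 and 35.2 CPM in 9mTSCmKO (0.79 ± 0.15, edgeR adjusted p = 5.38e-05). The low mutant value belonged to replicate 1, the library that stood furthest from its group, and without it the difference was 0.96. Treated 9-month mutants had 21.1, 29.2, 24.2, 29.3 and 26.8 CPM (-0.15 ± 0.15, edgeR adjusted p = 0.464, and -0.31 without replicate 1, edgeR adjusted p = 0.0565). The test of whether the rapamycin change differed between genotypes at 9 months gave -0.53 ± 0.21 (edgeR adjusted p = 0.134), and -0.71 without replicate 1 (edgeR adjusted p = 0.0119). At 3 months Gsr was 17.3 ± 1.38 CPM in CON and 22.6 ± 3.49 CPM in TSCmKO, and 4 of 5 mutant libraries lay between 23.9 and 24.4 CPM while replicate 5 was at 16.4. The test missed at 3 months (0.38 ± 0.15, edgeR adjusted p = 0.0636) and passed without that replicate (0.48, edgeR adjusted p = 0.0214).

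Txnrd1 (ENSMUSG00000020250, chr10:82833951-82897712, plus strand), the cytosolic thioredoxin reductase, which restores thioredoxin with NADPH, was 49.4, 70.7, 84.5, 86.2 and 85.1 CPM in 9mCON and 94.5, 114.8, 89.7, 132.6 and 114.9 CPM in 9mTSCmKO (0.54 ± 0.13, edgeR adjusted p = 0.000873). At 3 months it was 72.4 to 90.6 CPM in CON and 116.3 to 135.4 CPM in TSCmKO (0.55 ± 0.13, edgeR adjusted p = 0.00127). No library of CON reached the lowest TSCmKO library at its age. Treated mutants had 54.8, 71.3, 65.5, 76.9 and 66.3 CPM at 9 months (-0.71 ± 0.13, edgeR adjusted p = 4.32e-05). At 3 months they had 69.4, 69.5, 85.8, 59.6 and 68.1 CPM (-0.78 ± 0.13, edgeR adjusted p = 1.2e-05). At neither age did treated mutants overlap with untreated ones.

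Srxn1 (ENSMUSG00000032802, chr2:152105516-152111376, plus strand), sulfiredoxin, which repairs overoxidized peroxiredoxins, had the largest genotype difference of the 10 at both ages. It was 21.3, 26.8, 27.5, 34.1 and 22.9 CPM in 9mCON and 72.6, 89.8, 110.6, 131.2 and 106.6 CPM in 9mTSCmKO (1.94 ± 0.23, edgeR adjusted p = 9.23e-09). At 3 months it was 15.1, 19.5, 29, 20.7 and 21.3 CPM in CON and 48.4, 52.5, 48.3, 78.4 and 45.9 CPM in TSCmKO (1.37 ± 0.22, edgeR adjusted p = 1.54e-05). Neither pair of groups overlapped. With rapamycin the 9-month mutants were at 47.5, 47.2, 48.9, 76.9 and 48.9 CPM (-0.92 ± 0.22, edgeR adjusted p = 0.00129), where replicate 4 alone reached into the untreated range. The 3-month treated mutants were at 24.9, 36.6, 57.3, 34.6 and 25.8 CPM (-0.61 ± 0.22, edgeR adjusted p = 0.0384). The 3-month call was lost in 6 of 10 fits without 1 library, at -0.63 to -0.43. Those libraries were 3mTSCmKO replicates 2 and 4 and 3mTSCmKO+RM replicates 1, 2, 4 and 5.

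G6pdx (ENSMUSG00000031400, chrX:74409483-74429194, minus strand), glucose-6-phosphate dehydrogenase, the entry to the pentose phosphate path that supplies NADPH, did not pass the test in any comparison. It was 4.09 ± 1.02 CPM in 9mCON and 4.62 ± 1.87 CPM in 9mTSCmKO (0.17 ± 0.24, 95% interval -0.32 to 0.65). Treated 9-month groups were at 3.2 ± 0.8 CPM in TSCmKO (-0.52 ± 0.24, edgeR adjusted p = 0.0948) and 2.81 ± 0.82 CPM in CON (-0.55 ± 0.25, edgeR adjusted p = 0.157). The TSCmKO change passed without 9mTSCmKO replicate 2 (-0.63) or replicate 4 (-0.69), and was -0.36 without replicate 1 or replicate 3 (edgeR adjusted p = 0.292 and 0.287). The genotype difference was 0.015 and 0.0089 without replicates 1 and 3. Its levels were the lowest of the 10, with a coefficient of variation within groups of 12.5% to 40.5%.

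**Figure D3:**
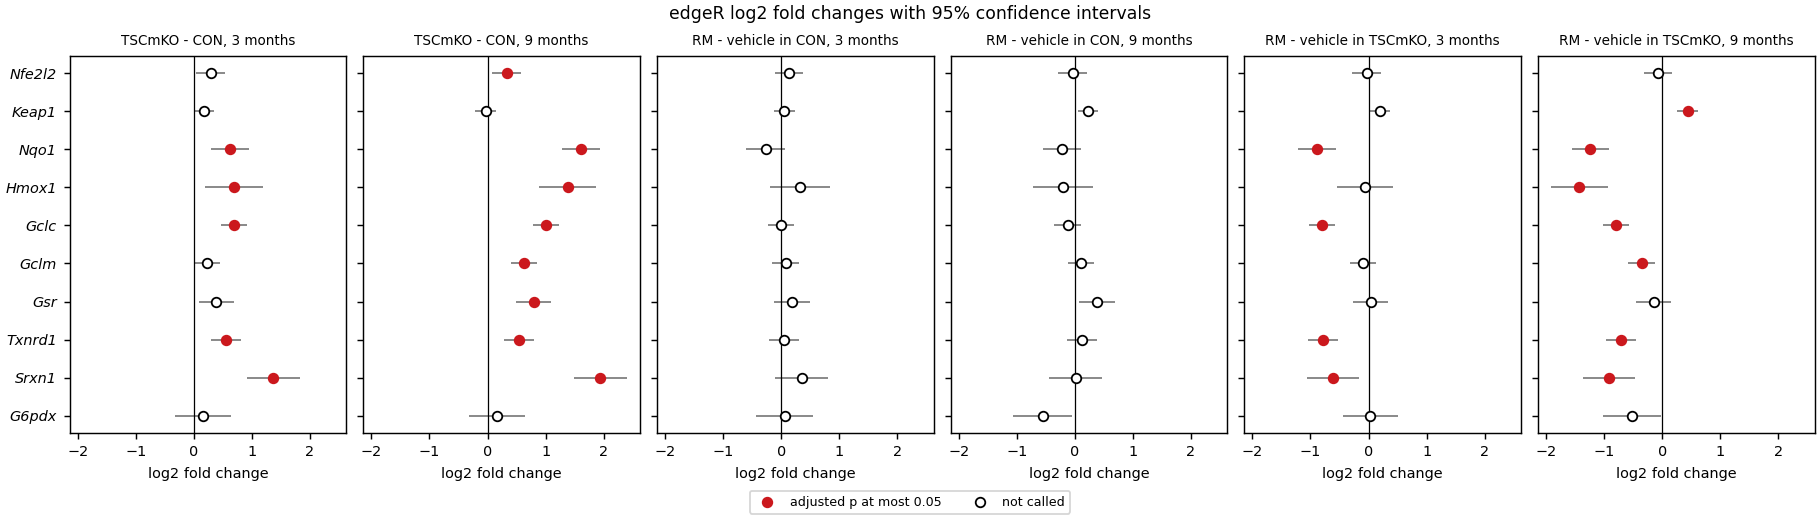
edgeR log2 fold changes with 95% intervals for the 10 genes in 6 comparisons, with filled points at an adjusted p of at most 0.05 and open points otherwise. Filled points lie right of 0 in the genotype panels and, except Keap1 at 9 months, left of 0 in the TSCmKO rapamycin panels, and there is none in either CON panel. The genotype and TSCmKO rapamycin comparisons share the untreated TSCmKO libraries.

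Counted over the 10 genes, the genotype effect at 9 months gave 8 calls, all higher, where 37.9% of all genes tested were called and 19.1% were called higher. The median log2 difference was 0.71 for the 10 genes and -0.02 for all genes. At 3 months 5 were called, all higher (Nqo1, Hmox1, Gclc, Txnrd1 and Srxn1), where 19.8% of all genes were called and 11.4% were called higher. All 10 log2 differences were positive at 3 months, with a median of 0.47. Nqo1 was the only 1 of the 10 whose genotype effect differed between ages (4.94% of all genes were called in that test).

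Under rapamycin, 9-month TSCmKO muscle gave 7 calls, 6 lower and Keap1 higher, where 32.6% of all genes were called and 16.8% were called lower. In 3-month TSCmKO muscle 4 were called, all lower (Nqo1, Gclc, Txnrd1 and Srxn1), where 23.6% of all genes were called and 13.0% were called lower. Of all genes called there 44.9% were higher, and 55.7% with upper-quartile scaling. In CON muscle no gene of the 10 passed in edgeR at 9 months, where 11.8% of all genes were called. At an unadjusted p under 0.05 there were 3 (Keap1, Gsr and G6pdx), and DESeq2 called 1. In 3-month CON muscle the count was again 0 in edgeR, 0 at an unadjusted p under 0.05 and 0 in DESeq2, where 0.679% of all genes were called. The interaction tests asked whether rapamycin changed a gene differently in TSCmKO and CON. At 9 months 4 passed (4.87% of all genes were called), namely Txnrd1 (-0.83 ± 0.18), Nqo1 (-1.01 ± 0.22), Gclc (-0.68 ± 0.16) and Hmox1 (-1.21 ± 0.35). With only the 4 groups compared in the fit, which called 201 genes of all in place of 660, Txnrd1 (-0.83, edgeR adjusted p = 0.0548) and Hmox1 (-1.20, edgeR adjusted p = 0.0716) were not called. The Hmox1 call was lost in 8 of 20 fits without 1 library, at -1.23 to -0.90. Those were 9mCON replicates 1, 3 and 4, 9mCON+RM replicate 1, 9mTSCmKO replicate 3 and 9mTSCmKO+RM replicates 2, 3 and 5. At 3 months 2 passed (3.45% of all genes were called), Gclc (-0.80 ± 0.16) and Txnrd1 (-0.83 ± 0.18), and Txnrd1 was lost with limma on log2(TPM + 1) (-0.74, adjusted p = 0.076). The added test of age against rapamycin in TSCmKO called 1 gene, Hmox1 (1.91% of all genes were called, of which 43.2% were higher, 27.7% with upper-quartile scaling and 15% with limma on log2(TPM + 1)).

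Treated mutants were also set against untreated controls, which share the same libraries with the comparisons above. At 9 months 3 genes were higher than in CON, where 31.9% of all genes were called: Srxn1 (1.02 ± 0.22), Gsr (0.65 ± 0.15) and Keap1 (0.40 ± 0.09), each without overlap. Of these, Keap1 was not higher in untreated mutants. Nqo1 differed by 0.37 ± 0.16 (edgeR adjusted p = 0.0701) and Hmox1 by -0.05 (95% interval -0.56 to 0.46). At 3 months the same 3 genes passed, where 16.7% of all genes were called: Srxn1 (0.76 ± 0.22), Gsr (0.42 ± 0.15, edgeR adjusted p = 0.0458) and Keap1 (0.37 ± 0.09). The 3-month Gsr call was lost in 9 of 10 fits without 1 library (0.38 to 0.44, every library but 3mCON replicate 3). The Srxn1 call was lost without 3mCON replicate 1 (0.66) or 3mTSCmKO+RM replicate 3 (0.53).

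Between 3 and 9 months, CON muscle changed in none of the 10 genes in edgeR, with 0 at an unadjusted p under 0.05 and 0 in DESeq2, where 1.02% of all genes were called. In TSCmKO muscle 5 were called, where 37.4% of all genes were called and 19.1% were called higher. Nqo1 (1.21 ± 0.16), Srxn1 (0.90 ± 0.22), Hmox1 (0.87 ± 0.24) and Gclm (0.31 ± 0.11) were higher at 9 months and Keap1 was lower (-0.21 ± 0.09, edgeR adjusted p = 0.0475). For Gclm the sign turned with limma on log2(TPM + 1) (-0.07, adjusted p = 0.751), and its mean was 26.1 TPM in 3mTSCmKO and 24.96 TPM in 9mTSCmKO. Gclm and Keap1 were both lost with no filter on low counts (0.29 and -0.24) and with only the groups compared (0.32 and -0.21). Gsr missed the threshold (0.36 ± 0.15, edgeR adjusted p = 0.0511) and passed in 4 of 10 fits without 1 library (0.41 to 0.54), with 0.54 and an edgeR adjusted p of 0.00125 without 9mTSCmKO replicate 1. The labels give insert sizes of 175 to 239 nt for 3-month libraries and 223 to 308 nt for the older ones, ranges that overlap in part. With insert size as a term, which drops 9mTSCmKO+RM replicate 5 because its label gives none, 1702 genes of all were called in place of 5064. There Nqo1 (1.24) and Srxn1 (1.32) were called, Gsr (0.63, edgeR adjusted p = 0.0275) was called too, and Hmox1 (0.68), Gclm (0.33) and Keap1 (-0.18) were not. Keap1 was lost in 9 of 10 fits without 1 library (-0.22 to -0.15, every library but 9mTSCmKO replicate 5). Gclm was lost without 3mTSCmKO replicate 5 (0.25) or 9mTSCmKO replicate 3 (0.28), and Hmox1 was 0.56 without the latter.

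Across the 40 libraries, Gclc and Srxn1 varied together most closely (Pearson's r = 0.83 of log2 CPM), followed by Nqo1 with Srxn1 (0.82) and Nqo1 with Gclc (0.79). After each group mean was subtracted, the highest values were Gclc with Srxn1 (0.70), Hmox1 with Gclc (0.61) and Gsr with Txnrd1 (0.60). Nfe2l2 itself then stood at 0.60 with Hmox1, 0.54 with Gclc and 0.51 with Srxn1. Keap1 had no value above 0.24 with any other of the 10 across libraries, and G6pdx none above 0.30. These are descriptions over 40 libraries whose values share library, depth and group, with no test. Among 9638 genes with a mean of at least 5 CPM, those most like Nqo1 were Ypel5 (0.91), Uchl1 (0.90), Psmb5 (0.89), Mycbp (0.89) and Ddit3 (0.89). Those most like Nfe2l2 were Prnp (0.75), Acot9 (0.74), Psmc4 (0.74), Myf6 (0.74) and Rnf115 (0.735). Srxn1 ranked as the 6th gene most like Nfe2l2 (0.72).

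**Figure D4:**
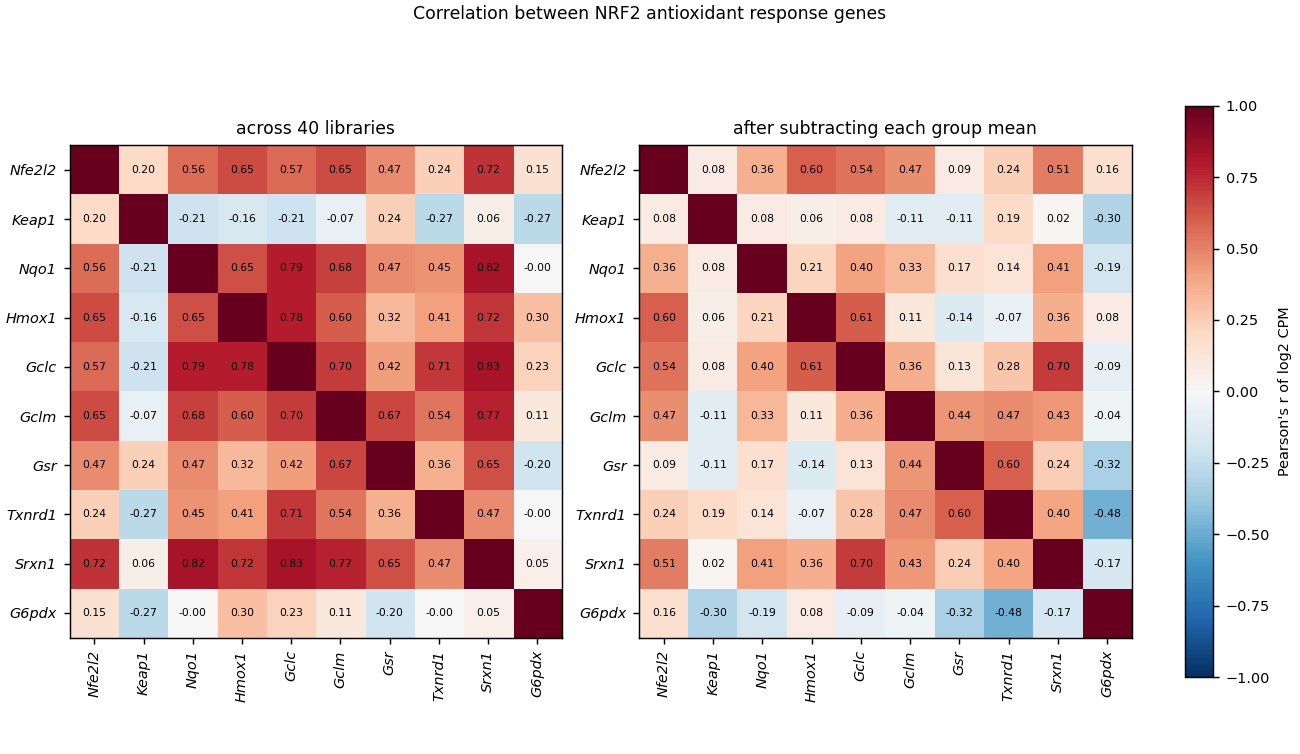
Pearson's r of log2 CPM between each pair of the 10 genes over 40 libraries (left) and after subtraction of each group mean (right), with red for positive and blue for negative values. Nqo1, Hmox1, Gclc, Gclm and Srxn1 form a block of positive values on the left (0.605 to 0.827) that is paler on the right, while values of Keap1 and G6pdx on the left lie between -0.27 and 0.298.

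The wider pathway was described with 5 lists of other genes, whose counts are to be read against all genes tested. With genotype 19.1% of these were higher at 9 months (37.9% called in either direction) and 11.4% at 3 months (19.8%). With rapamycin in TSCmKO 16.8% were lower at 9 months (32.6%) and 13.0% at 3 months (23.6%). Of 13 regulators and partners of NRF2, 5 were higher and 1 lower in 9mTSCmKO than in 9mCON (median log2 0.27, against -0.02 over all genes). Sqstm1, which encodes p62, an autophagy receptor that binds KEAP1, was 611.6 ± 43.4 CPM in 9mCON, 1798 ± 403 in 9mTSCmKO and 862.3 ± 48 in 9mTSCmKO+RM. Dpp3, a peptidase that also binds KEAP1, was 11.5 ± 2.6, 32.9 ± 4.71 and 14.4 ± 1.68 CPM in the same order. Mafk, a small Maf partner, was 31.3 ± 5.07, 59 ± 7.68 and 38.7 ± 2.78 CPM. All 3 rose with genotype at 9 months (log2 1.56, 1.52 and 0.91) and fell with rapamycin (-1.06, -1.19 and -0.61). Nfe2l1, which encodes the related factor NRF1, rose by 0.85 and differed by -0.26 with rapamycin (edgeR adjusted p = 0.147). At 3 months 5 of the 13 were higher and 0 lower, and 7 were lower and 0 higher with rapamycin, where the 9-month rapamycin counts were 4 lower and 1 higher.

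Of 15 genes of glutathione synthesis, conjugation and export, 13 were tested (not Gpx2 and Gsta3), and 7 were higher and 2 lower at 9 months (median 0.62). Of these, Gsta1 and Gsta2 were tested only because they were high in 9mTSCmKO. Without both, 5 of 11 were higher and 2 lower, and the median was -0.10, of the opposite sign. Slc7a11, the cystine importer, was 1.35 ± 0.27 CPM in 9mCON, 2.87 ± 0.56 in 9mTSCmKO and 1.19 ± 0.54 in 9mTSCmKO+RM. Gss, glutathione synthetase, rose by 0.72, and the transferases Mgst1 and Gsta4 by 0.71 and 0.645. The 2 that were lower were the exporters Abcc1 (-0.58) and Abcc4 (-0.34), named after their values were seen. At 9 months rapamycin lowered Slc7a11, Gsta4 and Gss (-1.26, -1.32 and -0.46), and Mgst1 differed by -0.60 (edgeR adjusted p = 0.0916). In all, 6 were lower and 2 higher with rapamycin at 9 months, and 4 and 2 without Gsta1 and Gsta2. The 2 that were higher were Abcc1 (1.19, edgeR adjusted p = 2.28e-08) and the transferase Gstm4 (0.61, edgeR adjusted p = 0.000157), also named after their values were seen. At 3 months 1 was higher and 0 lower with genotype (median -0.02), and 3 rose and 3 fell with rapamycin.

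Gsta1 and Gsta2, glutathione transferases induced by NRF2 in liver, fell below the level set for naming and were singled out after their values were seen. They share 55.5% and 42.0% of their 31-base words with each other, so that reads can be split between them, and their counts were added. The sum was 2, 0, 1, 2 and 2 counts in the 9mCON libraries and 187, 123, 304, 194 and 107 counts in the 9mTSCmKO libraries. It was 7, 7, 5, 11 and 2 counts in 9mTSCmKO+RM and at most 4 counts in any library of the other 5 groups. Over group totals, 9mTSCmKO was 120-fold above 9mCON and 26.5-fold above 9mTSCmKO+RM, as a description of counts chosen for their size. In 3mTSCmKO the 5 libraries together held 6 counts. They passed the filter on low values only through the 9mTSCmKO libraries, so their calls among the 7 higher and 6 lower genes of the list, and their points in the plot of the pathway lists, give no support to either count.

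Of 16 thioredoxin, heme, iron and detoxification targets, 10 were higher and 0 lower at 9 months (median 0.62). Among them Cbr3, named after its values were seen, reached 1 CPM in 5 of 5 9mTSCmKO libraries and in 2 others, and so was tested only through the group where it was high. Without it 9 of 15 were higher and 0 lower (median 0.59). Htatip2 (1.58), Txn1, thioredoxin itself (1.49), Fth1, the ferritin heavy chain (1.16), and Osgin1 (1.05) had the largest differences at a mean of 1 CPM or more. Txn1 was 30.9 ± 3.75 CPM in 9mCON, 87 ± 25.1 in 9mTSCmKO and 28.8 ± 7.11 in 9mTSCmKO+RM. Htatip2 was 8.03 ± 3.73, 23.9 ± 11.7 and 23.2 ± 6.21 CPM in the same order and did not pass with rapamycin (-0.04, edgeR adjusted p = 0.917). At 9 months 9 of the 16 were lower with rapamycin and 0 higher, and 8 of 15 without Cbr3. At 3 months 2 were higher and 0 lower with genotype (median 0.05), and 1 rose and 1 fell with rapamycin.

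Of 10 pentose phosphate and NADPH enzymes, 4 were higher and 3 lower at 9 months (median 0.18). Pgd, the second NADPH-forming step after G6pdx, was 14.4 ± 0.69 CPM in 9mCON, 33.7 ± 11 in 9mTSCmKO and 16.2 ± 1.4 in 9mTSCmKO+RM. Taldo1, transaldolase, rose by 0.68 and Idh2, the mitochondrial NADPH-forming isocitrate dehydrogenase, by 0.97, while H6pd, the related enzyme of the endoplasmic reticulum, fell by 0.61. With rapamycin 3 were lower and 0 higher at 9 months, a share near that of all genes called. At 3 months 4 were lower and 0 higher with rapamycin, and the genotype effect gave 1 higher and 1 lower, a share near that of all genes.

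Of 22 other antioxidant enzymes, 7 were higher and 2 lower at 9 months (median 0.17), a share called near that of all genes. Gpx3, the secreted glutathione peroxidase, was 412.8 ± 62.7 CPM in 9mCON, 1621 ± 477 in 9mTSCmKO and 371.5 ± 107 in 9mTSCmKO+RM. Gpx4, which reduces lipid peroxides, Cat, catalase, and Prdx2, a peroxiredoxin, rose by 1.36, 0.93 and 0.85 and fell with rapamycin (-0.78, -0.45 and -0.44). Sod2 and Prdx3, a mitochondrial dismutase and peroxiredoxin, were the 2 that were lower (-0.48 and -0.40), named after their values were seen. With rapamycin 10 were lower and 0 higher at 9 months. At 3 months 4 were higher and 3 lower with genotype, and 4 fell and 2 rose with rapamycin.

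**Figure D5:**
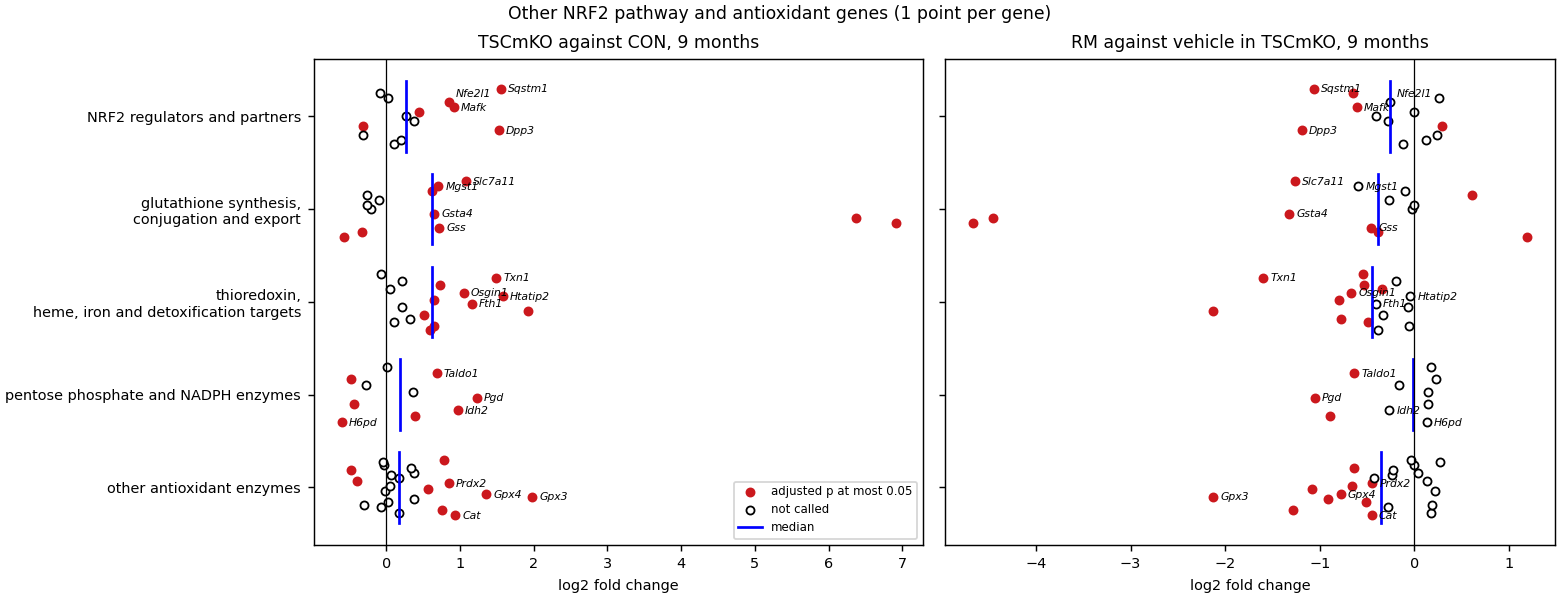
Log2 fold changes of the other pathway genes at 9 months for genotype (left) and for rapamycin in TSCmKO (right), 1 point per gene and 1 row per list, with filled points at an adjusted p of at most 0.05 and a blue line at each list's median. The pair of points near 6.4 and 6.9 on the left, and below -4 on the right, are Gsta2 and Gsta1, whose fitted values rest on near-zero controls. Both panels share the untreated TSCmKO libraries.

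Some markers of cell types were called between groups, and their counts are to be read against all genes tested. With genotype 37.9% of these were called at 9 months and 19.8% at 3 months. With rapamycin in TSCmKO 32.6% were called at 9 months and 23.6% at 3 months. Some of the marker counts lay near these shares. In 9mTSCmKO against 9mCON, 4 of 8 fiber, 3 of 5 fibroblast, 2 of 5 endothelial, 2 of 4 adipocyte, 2 of 4 smooth muscle and pericyte and 1 of 4 Schwann cell markers were lower and none of these higher. None of 5 erythroid markers, 4 satellite cell markers or the 1 neutrophil marker tested of 3 was called there. At 3 months the tested neutrophil marker was higher with genotype (4.29) and lower with rapamycin in TSCmKO (-3.52). Of the other lists besides macrophage, 1 of 4 smooth muscle and pericyte markers was lower with genotype there, and with rapamycin in TSCmKO 3 of 8 fiber markers were higher and 1 lower and 1 of 5 fibroblast markers was higher. The neutrophil list summed to 112 TPM in 3mTSCmKO replicate 4, the library that stood apart for Srxn1, and to at most 17.5 TPM elsewhere. Without that library the 3-month genotype difference of Srxn1 was 1.19 (edgeR adjusted p = 0.000157) and that of Nqo1 0.49 (edgeR adjusted p = 0.0298). The 3-month call of Hmox1 for genotype was lost without it (0.72, edgeR adjusted p = 0.0522), as was that of Srxn1 for rapamycin in TSCmKO (-0.43, edgeR adjusted p = 0.178). Erythroid sums were 28730 TPM in 3mTSCmKO replicate 3 and 21120 TPM in 9mCON replicate 1, and at most 6716 TPM elsewhere. With rapamycin in 9-month TSCmKO, 4 of 8 fiber markers were higher and 1 lower, and of the other lists besides macrophage, 1 endothelial, 1 satellite cell and 1 smooth muscle and pericyte marker were higher and 1 endothelial marker lower. The fiber sum there was 145800 to 168000 TPM. The part of these shifts in the values of the 10 genes was not tested.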

How the data were processed

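The authors extracted poly(A) RNA, sequenced directional single-end libraries, trimmed reads with Cutadapt 1.9.1 and assigned them by strand with kallisto 0.43.1 to Ensembl transcripts of GRCm38. The deposited tables hold expected counts per gene, in which a read matching several transcripts was shared among them, and the TPM that the authors derived from these counts. Groups came from the labels, and 0 value columns lacked a label. Members and lists were chosen with earlier results of these data known. Named genes were the 10 members, up to 4 genes per list with the largest called genotype effect at 9 months and a mean of at least 1 CPM, and the 5 genes most like Nfe2l2 and Nqo1.

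Counts were rounded and tested with edgeR 4.0.16 (R 4.3.3; TMM, robust quasi-likelihood fit of 40 libraries, 13543 genes at 1 CPM in at least 5 libraries, two-sided, Benjamini-Hochberg over all genes tested, threshold 0.05). The step was checked on simulated data. Alternatives were DESeq2 1.42.0, limma 3.58.1 on log2(TPM + 1), other scalings, no filter, only the groups compared, insert size, the replicate number, and each library left out. Intervals are 95% intervals of the fitted difference between groups, with an error estimated from the spread between these libraries. Genes came with coordinates of GENCODE M21 and promoters from RefSeq (GRCm38.p6). The study text limits the transcripts to protein-coding ones, but 21% of the genes listed are of other classes in GENCODE, so the transcript set is uncertain. Shared 31-base words were 1.31% of Gclm, 0.0719% of Srxn1 and 0% of the other members.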

Additional observations from a re-analysis of the deposited data

Results flagged for a closer look

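Single libraries stood apart from the other 4 of their group in 8 of the 80 combinations of gene and group, by the gap to the nearest library as a share of the group's range (limit 0.71, Dixon's test). Chance gives about 4 in 80. For 9mTSCmKO replicate 3, Nfe2l2 was 92.2 CPM (others 59.1 to 65.1) and Hmox1 24.5 CPM (others 10.2 to 12). Hmox1 was 6.49 CPM in 9mCON+RM replicate 1 (others 3.76 to 4.11). Gclc was 21.7 CPM in 3mCON+RM replicate 2 (others 15.4 to 16.8). Gsr was 16.4 CPM in 3mTSCmKO replicate 5 (others 23.9 to 24.4). Txnrd1 was 135.4 CPM in 3mTSCmKO replicate 1 (others 116.3 to 120.7). Srxn1 was 78.4 CPM in 3mTSCmKO replicate 4 (others 45.9 to 52.5) and 76.9 CPM in 9mTSCmKO+RM replicate 4 (others 47.2 to 48.9).

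Differences between groups under the same contrast passed the edgeR test 8 times. The genotype effect on Nqo1 was larger at 9 than at 3 months by 0.99 on the log2 scale. The rapamycin effect was lower in TSCmKO than in CON at 9 months for Nqo1 (-1.01), Hmox1 (-1.21), Gclc (-0.68) and Txnrd1 (-0.83), and at 3 months for Gclc (-0.80) and Txnrd1 (-0.83). The rapamycin effect on Hmox1 in TSCmKO was lower at 9 than at 3 months (-1.36).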

How the results depend on the processing

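Over 140 pairs of gene and comparison, 8 other settings gave 1120 values. Of these, 1077 kept the call or its absence, 17 gained and 25 lost the threshold, and 1 reversed. That was Gclm between ages in TSCmKO, at -0.07489 with limma on log2(TPM + 1). There the setting gave a median over all genes of -0.04 (0.0036 before), and for age in CON of -0.102 (0.012 before). In 33 of the 1077 the sign differed with neither value past the threshold. The number of genes called moved by over 1.5 times for age in TSCmKO, to 3 with no filter, 3 with only the groups compared and 3 with insert size as a term (5 before), for treated mutants against controls at 9 months, to 5 with limma (3 before), for rapamycin by genotype, to 2 at 9 months with only the groups compared (4 before) and 1 at 3 months with limma (2 before), and for rapamycin in 9-month CON, to 1 with DESeq2 (0 before). The cause was not tested.

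With 1 library left out, the number of genes called was 7 to 8 and 4 to 5 for genotype at 9 and 3 months, 6 to 8 and 3 to 4 for rapamycin in TSCmKO, 0 to 1 and 0 to 0 in CON, 0 to 0 and 3 to 5 for age in CON and TSCmKO, 3 to 4 and 1 to 3 for treated mutants against controls, 1 to 1 for genotype by age, 3 to 6 and 2 to 3 for rapamycin by genotype, and 0 to 1 for rapamycin by age. Of 1800 such values 52 lost the threshold and 19 gained it.

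Replicate numbers did not pair the libraries. Deviations of same-numbered libraries correlated at -0.36 to 0.41 over 140 pairs, 28 of them above 0.1, and 4 of 40 libraries correlated best with their own number. With a replicate block, the number of genes called stayed within 1.5 times for every comparison (8 for genotype at 9 months, 7 for rapamycin in TSCmKO at 9 months). It gained Gclm in treated mutants at 9 months (0.27) and Srxn1 for rapamycin by genotype (-0.94 at 9 and -1.001 at 3 months), and lost Hmox1 for the same at 9 months (-1.19).

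Counts over all genes moved by over 1.5 times as follows. With only the groups compared they were 2710 for genotype at 9 months (5133 before), 2512 and 580 for rapamycin at 9 months in TSCmKO and CON (4410 and 1604), 378 in 3-month CON (92), 34 for age in CON (138), 3740 for treated mutants at 3 months (2260), 310 for genotype by age (669), 201 and 1178 for rapamycin by genotype at 9 and 3 months (660 and 467) and 105 for rapamycin by age (259). With insert size they were 25 and 1702 for age in CON and TSCmKO (138 and 5064). With no filter they were 38 for 3-month rapamycin in CON, 83 for age in CON, 435 for rapamycin by genotype at 9 months and 141 for rapamycin by age. DESeq2 gave 181, 375 and 494 for the first, second and last of these 4, and limma gave 215 for age in CON.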
